A study of Mus musculus with 7 samples.

Results

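The lysosome genes described here are 45 mouse genes picked by their symbols from the lysosomal membrane, the enzymes of its lumen, its ion channels, its proton pump and the transcription factors that control it. Each of the 45 symbols had a row in a table of gene counts that listed 55484 genes. The rule that picked the 45 used no measured value, but earlier results of these data were known when they were chosen. The counts came from 4 libraries of mouse embryonic fibroblasts (MEFs), connective tissue cells grown from embryos, and 3 libraries of mouse embryonic stem cells (mESCs), pluripotent cells that renew themselves in culture. The study gives both cell types a C57/Bl6 background, in the methods of its chromatin assay. The labels name no treatment, engineered allele or embryonic age. The RNA protocol in the labels of all samples names blood stem cells of young and aged mice instead, and the columns of counts carry a letter O for MEFs and Y for mESCs that no source explains. The cells of the study were sorted as Thy1+ MEFs and Thy1-/SSEA1+/EPCAM+ mESCs for its chromatin assay. The RNA data are described as a set the laboratory already held, and whether those cells were sorted in the same way is not given in the sources used here. The study calls its RNA replicates biological, for fewer MEF replicates than there are MEF libraries here, and does not say whether they were separate cultures or animals. The p-values therefore measure the spread between these libraries, which may in part be technical.

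The lysosome is the acidic compartment in which cells break down proteins, sugars, glycosaminoglycans, lipids and whole organelles. A proton pump, the V-ATPase, acidifies it, a set of hydrolases works in its lumen, and heavily glycosylated membrane proteins line it. The MiT/TFE transcription factors, among them TFEB and TFE3, bind a short promoter sequence known as the CLEAR element and switch on many lysosome genes when they enter the nucleus. Loss of single enzymes causes the lysosomal storage diseases, from which many of these genes were identified.

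RefSeq promoter sequences on GRCm38.p6, running from 250 bases before to 50 bases after a start, matched 41 of the 45 genes by symbol and gave 50 promoters. Ctsb, Ctsh, Galns and Asah1 had no entry. The palindrome TCACGTGA, the core of the CLEAR element, was found in 7 of these 50 promoters (14%) and in 320 of all 32851 promoters (0.974%). It reads the same on both strands. These promoters belonged to 7 genes, which are printed because the genes that hold the motif moved in different directions. Lower case is flanking promoter, capitals mark TCACGTGA, and each sequence runs 5′ to 3′ on the strand of its gene.
Atp6v1a (chr16:44139358-44139417, minus strand): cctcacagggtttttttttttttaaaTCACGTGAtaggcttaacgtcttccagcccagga
Gla (chrX:134601167-134601255, minus strand): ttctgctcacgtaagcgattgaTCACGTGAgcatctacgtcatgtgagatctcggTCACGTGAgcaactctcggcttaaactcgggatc
Cln3 (chr7:126583325-126583384, minus strand): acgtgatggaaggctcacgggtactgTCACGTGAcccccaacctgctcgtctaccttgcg
Atp6v0d1 (chr8:105566035-105566094, minus strand): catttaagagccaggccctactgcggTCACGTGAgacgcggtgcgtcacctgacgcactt
Ctsa (chr2:164833734-164833810, plus strand): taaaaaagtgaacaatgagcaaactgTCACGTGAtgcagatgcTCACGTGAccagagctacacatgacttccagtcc
Ctsd (chr7:142387893-142387952, minus strand): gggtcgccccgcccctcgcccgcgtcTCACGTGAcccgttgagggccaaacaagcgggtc
Mcoln1 (chr8:3500447-3500506, plus strand): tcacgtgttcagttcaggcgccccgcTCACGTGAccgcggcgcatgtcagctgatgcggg

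Depth and cell identity were checked first. Library totals were 11441278, 7312679, 9176467 and 6528643 counts for the MEFs and 8193825, 8057985 and 7462710 for the mESCs, and values per library are given below in this order. Levels are counts scaled to library size (CPM), with library sizes corrected for composition by TMM, and a floor of 3 counts equals 0.262 to 0.46 CPM. The libraries were made from the 3′ ends of transcripts, so levels are compared between libraries and not between genes. All 14 fibroblast markers listed, Thy1 and Col1a1 among them, were lower in mESCs (edgeR), with a summed level of 26800 to 43500 CPM in MEF libraries and 385 to 437 CPM in mESC libraries. All 11 pluripotency markers that could be tested, such as Nanog and Sox2, were higher in mESCs, with a sum of 3500 to 3800 CPM against 46.8 to 48.6 CPM. Of 7 blood stem cell markers that could be tested, Cd34, Ly6a and Cd53 were lower in mESCs and Kit higher, and the summed level of all 10 listed was 111 to 202 CPM in MEFs and 41.7 to 47 CPM in mESCs. In bulk libraries such as these, fewer cells of a type and less RNA per cell cannot be told apart.

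The 45 genes together took 0.475% to 0.604% of the counts of a MEF library and 0.233% to 0.334% of those of an mESC library, so the ranges did not overlap. On the TMM scale their sum was 5240, 6300, 6190 and 6300 CPM in MEFs and 2980, 2390 and 2060 CPM in mESCs. Cd63, a tetraspanin of late endosomes and lysosomes, made up 3420 ± 252 of the mean sum of 6010 CPM in MEFs. Without it the sum was 2100, 2550, 2810 and 2880 CPM in MEFs and 2380, 1920 and 1530 CPM in mESCs, and the mESC library of 8193825 counts lay inside the MEF range. The mean sum in mESCs was 41.2% of that in MEFs with Cd63 and 75.3% without it.

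Gene by gene, the lysosome genes were more often lower in mESCs than higher. All 45 passed the filter on low counts. By edgeR's quasi-likelihood test, 20 fell in mESCs (44.4%) and 7 rose (15.6%) at a threshold of 0.05 on the adjusted p, while 18 did not pass. Over all 16580 genes tested, 25.0% were lower and 22.8% higher. The median log2 fold change of the 45, mESC over MEF, was -0.64, and that of all tested genes was 0.04. By libraries that did not overlap, 20 of the 45 were lower and 6 higher, where 26.2% and 25.9% of all tested genes were. Against a fold change of 2, 8 of the 45 were lower and 0 higher, where 13.7% of all genes were lower and 10.3% higher by the same edgeR test. At an unadjusted p under 0.05 that test gave 11 lower and 1 higher, and DESeq2, tested against no change, called 21 lower and 7 higher. Leaving out TMM shifted the median log2 fold change of all tested genes up by 0.28. In that fit 15 of the 45 were lower and 8 higher. The share of lower calls among all calls went from 74.1% with TMM to 65.2% without it for the 45, and from 52.3% to 39% for all genes.

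**Figure D1:**
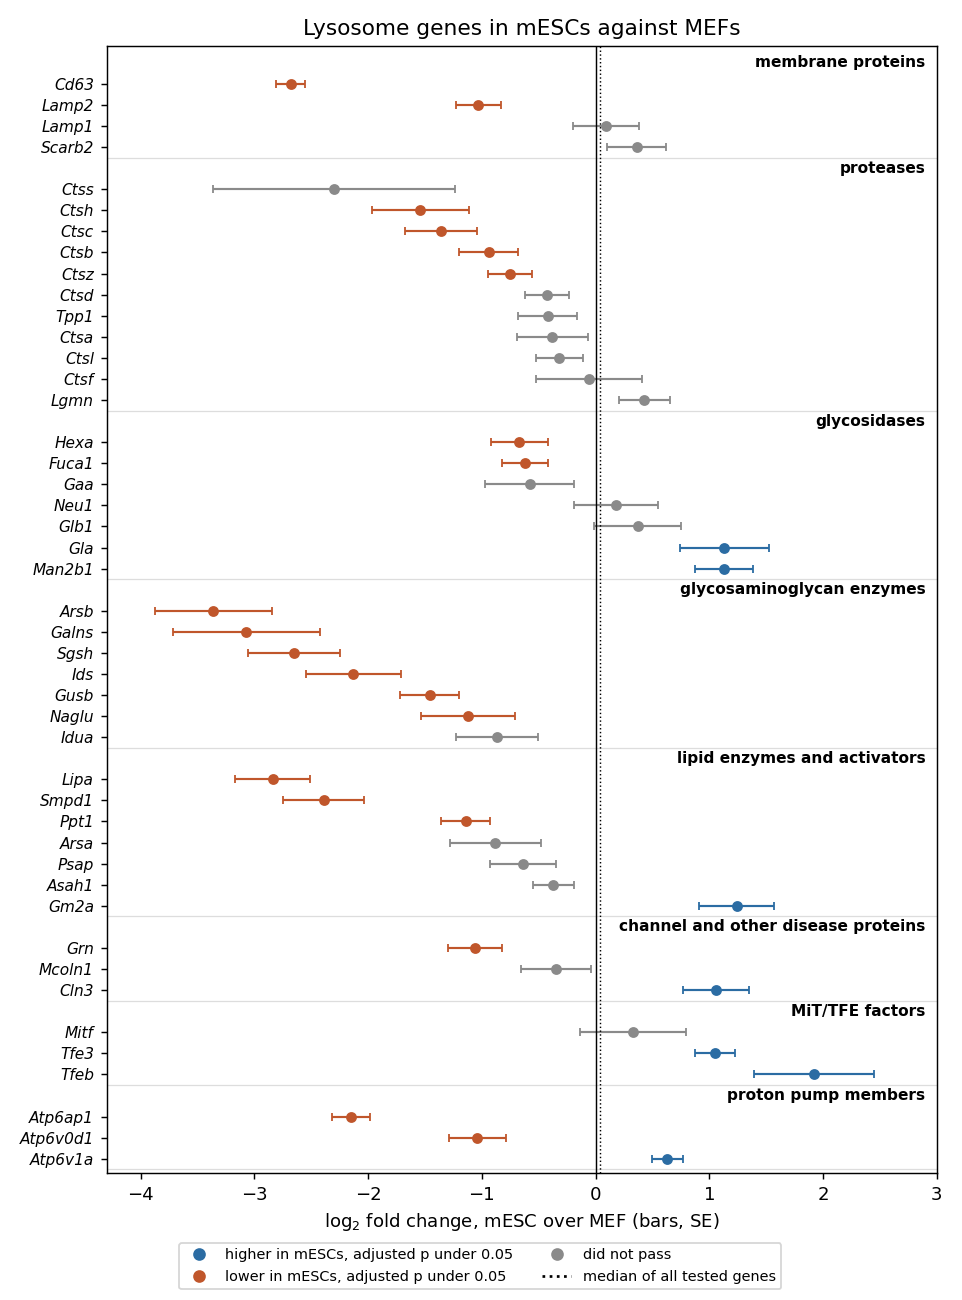
Fitted log2 fold change of each of the 45 lysosome genes, mESC over MEF, with its standard error (bars), grouped by role. Blue points passed as higher and orange points as lower in mESCs (edgeR, threshold 0.05 on the adjusted p), and the dotted line is the median of all 16580 tested genes at 0.04. Most coloured points lie left of 0, and 6 of the 7 glycosaminoglycan enzymes are among them.

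Membrane proteins of the lysosome split into a pair that fell and a pair that did not pass. Cd63, on chr10:128900989-128912822, stood at 3140, 3750, 3380 and 3430 CPM in MEFs and at 603, 474 and 523 CPM in mESCs. No MEF library came near any mESC library. Cd63 was 6.43-fold lower in mESCs (log2 fold change -2.68 ± 0.13 SE, edgeR adjusted p = 8.24e-08). A share of 11.1% of the 50-base sequences in its exons also occurs in the pseudogene Cd63-ps or in Gm38157, and reads from those stretches would not map to 1 place. Lamp2, a membrane glycoprotein also needed for autophagy, was at 146, 166, 230 and 237 CPM in MEFs and at 87.3, 106 and 91.9 CPM in mESCs. Its ranges did not overlap, and it was 2.05-fold lower (edgeR adjusted p = 0.0014). Lamp1, its close relative, had 14.8 ± 4.08 CPM in MEFs (SD, n = 4) and 15.8 ± 3.65 CPM in mESCs (n = 3), with overlapping libraries and an edgeR adjusted p of 0.817. Of the last 1000 exon bases of Lamp1, 17.7% overlap Grtp1 on the other strand, a gene that rose in mESCs from 6.67 to 47.7 CPM, and the strand setting of the counting is not given in the sources used here. Scarb2, a membrane protein of lysosomes and late endosomes, had 25 ± 6.31 and 32.1 ± 7.98 CPM and did not pass (edgeR adjusted p = 0.276).

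Of the proteases, 4 of 11 were lower in mESCs (36.4%) and 0 higher by edgeR's test, against 25.0% and 22.8% of all tested genes. An unadjusted p under 0.05 gave 5 and 0 and DESeq2 gave 5 and 0. The 4 called by edgeR were the cathepsins Ctsb, Ctsc, Ctsh and Ctsz. Ctsc, the dipeptidyl peptidase that activates granule serine proteases, stood at 39.8, 48.4, 69.8 and 69 CPM in MEFs and at 31.7, 21.5 and 13 CPM in mESCs. All mESC libraries lay under all MEF libraries, and the fold was 2.57 (edgeR adjusted p = 0.00441). Ctsh, an aminopeptidase, went from 5.7 ± 0.699 to 1.95 ± 0.879 CPM (2.91-fold lower, edgeR adjusted p = 0.0117). Ctsb, a cysteine protease, was at 144, 126, 239 and 243 CPM in MEFs and at 122, 86.6 and 85.1 CPM in mESCs. Its ranges nearly touched at 126 and 122 CPM, and its fold of 1.92 (edgeR adjusted p = 0.0115) lost the call without TMM, with an adjusted p of 0.057. The last 1000 exon bases of Ctsb overlap Fdft1 on the other strand over 77.4%, and Fdft1 had 28 CPM in MEFs and 30.2 CPM in mESCs. Ctsz, a carboxypeptidase, was 1.68-fold lower (26.3 ± 2.47 to 15.7 ± 0.856 CPM, edgeR adjusted p = 0.00855) and also lost the call without TMM (0.0754).

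The other proteases did not pass, and for some of them 1 library decided. Ctsl, a cysteine protease with broad targets, stood at 828, 1150, 1010 and 1050 CPM in MEFs and at 1130, 672 and 614 CPM in mESCs. The mESC library of 8193825 counts was under 1 MEF library only, while the other mESC libraries were under all MEFs. Without that library, Ctsl had a log2 fold change of -0.66 (edgeR adjusted p = 0.00999) in place of -0.32 (0.23). Ctsd, the main aspartic protease of the lysosome, showed the same with 98.3 CPM in that library against 67.7 and 64.1 CPM in the others, and its log2 fold change went from -0.43 (edgeR adjusted p = 0.0888) to -0.66 (0.0215) without it. Of the exon bases of Ctsd, 34.4% are shared with Gm49369 on the same strand, a gene with 0 counts in every library. In all, 15 of the 45 genes share exon bases with another gene, 8 of them over at least 10% of their bases. Ctsa, which protects other enzymes as well as cutting peptides, Ctsf, Tpp1, a tripeptidyl peptidase, and Lgmn, an asparaginyl endopeptidase, had log2 fold changes between -0.42 and 0.43 and edgeR adjusted p-values from 0.138 to 0.929. Lgmn was called higher without TMM (log2 fold change 0.71, edgeR adjusted p = 0.0228) and with upper quartile scaling (0.62 and 0.0359).

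Ctss, a cathepsin best known from antigen-presenting cells, varied more than any other of the 45 within a cell type. Its level was 2.7, 0.153, 8.91 and 14.4 CPM in the MEF libraries and 0.871, 0.342 and 2.73 CPM in the mESC libraries. The lowest MEF library had 1 count and the highest had 90. In the same order, the summed level of 14 macrophage markers was 42.5, 23.6, 92.1 and 98.1 CPM in MEFs and 18.5, 15.1 and 28.9 CPM in mESCs, so Ctss and this sum had the same order in both cell types. Of the 8 macrophage markers that could be tested 3 were lower in mESCs (C1qb, C1qc and Lyz2) and 0 higher by edgeR's test. The counts were the same by DESeq2 and at an unadjusted p under 0.05, and 25.0% of all tested genes were lower. Lyz2 stood at 6.65, 8.73, 32.9 and 35.9 CPM in MEFs. Adgre1, with 3, 10, 0 and 8 counts in MEFs and 0 in every mESC library, did not follow the order of the sum in MEFs. Nor did Csf1r, at 22.7, 6.43, 17.3 and 12.9 CPM in MEFs, and it did not pass (edgeR adjusted p = 0.573). The part of such cells in the level of Ctss was not tested. The log2 fold change of Ctss was -2.3 ± 1.06 (SE) and did not pass by edgeR's test (adjusted p = 0.0986), but passed by DESeq2 (adjusted p = 0.0407) and, by edgeR, with no filter (adjusted p = 0.000195) or without the MEF library of 7312679 counts (-2.71, adjusted p = 0.0179).

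Among the glycosidases, which remove sugars from glycoproteins and glycolipids, 2 of 7 rose and 2 fell (28.6% each). These shares were near those of all tested genes, 22.8% higher and 25.0% lower. Man2b1, lysosomal alpha-mannosidase, stood at 9.16, 12.6, 13.1 and 10.2 CPM in MEFs and at 28.5, 27.9 and 17.3 CPM in mESCs. No libraries overlapped, and it was 2.18-fold higher (log2 fold change 1.13 ± 0.26 SE, edgeR adjusted p = 0.00413). Gla, alpha-galactosidase A, the enzyme lacking in Fabry disease, was at 2.8, 9.04, 5.06 and 8.15 CPM in MEFs and at 10.9, 15.2 and 14.6 CPM in mESCs. It was 2.19-fold higher (edgeR adjusted p = 0.0347). That call was lost without any one of 4 libraries (the MEF libraries of 11441278 and 9176467 counts and the mESC libraries of 8057985 and 7462710 counts), with edgeR adjusted p-values of 0.0551, 0.0827, 0.0984 and 0.092.

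Hexa, the alpha chain of beta-hexosaminidase, and Fuca1, alpha-fucosidase, were the pair that fell. Hexa had 29.9 to 49.5 CPM in MEFs and 20.9 to 36.4 CPM in mESCs, ranges that overlapped (log2 fold change -0.67, edgeR adjusted p = 0.0483). Fuca1 had 31.3 ± 2.63 and 20.3 ± 4.38 CPM (-0.62, adjusted p = 0.0271). Hexa did not pass in 5 of the 7 fits that left out 1 library (highest edgeR adjusted p = 0.159) and Fuca1 in 3 of 7 (0.0956), and neither passed without TMM or with upper quartile scaling. Hexa also missed with DESeq2's size factors (0.0556) and Fuca1 with no filter (0.0525). Gaa, acid alpha-glucosidase, Glb1, beta-galactosidase, and Neu1, sialidase, did not pass, with log2 fold changes of -0.58, 0.37 and 0.18.

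The enzymes that take glycosaminoglycans apart gave the most uniform group. By edgeR's test, 6 of 7 genes were lower in mESCs (85.7%) and 0 higher, against 25.0% and 22.8% of all tested genes. An unadjusted p under 0.05 gave 7 and 0 and DESeq2 gave 6 and 0. The 7 genes had a median log2 fold change of -2.13 (-1.85 without TMM). Each of them removes 1 kind of sulfate or sugar from heparan, dermatan, keratan or chondroitin sulfate, and loss of each causes a form of mucopolysaccharidosis. Their summed level was 70.5 to 92 CPM in MEFs and 20.2 to 29.7 CPM in mESCs, which is 32.6% of the MEF mean. Against a fold change of 2, edgeR's test gave 4 of the 7 as lower, where 13.7% of all tested genes were.

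Arsb, on chr13:93771630-93943016, removes sulfate from dermatan and chondroitin sulfate. Its level was 6.36, 4.9, 6.38 and 12.6 CPM in MEFs and 0.871, 0.457 and 0.83 CPM in mESCs. The mESC libraries held 8, 4 and 7 counts, and the lowest MEF library held 32. Arsb was 10.3-fold lower (log2 fold change -3.36 ± 0.52 SE, edgeR adjusted p = 0.000339). Its exons overlap genes on the other strand over 39.9% of their bases and 99.9% of the last 1000. Of these partners Gm47210 had at most 1 count in a library, and Gm26527 had no row in the table.

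Sgsh, which removes N-linked sulfate from heparan sulfate, stood at 7.42, 11.6, 11.9 and 10.9 CPM in MEFs and at 2.29, 1.71 and 0.948 CPM in mESCs. It was 6.26-fold lower without any overlap (log2 fold change -2.65 ± 0.41 SE, edgeR adjusted p = 0.000335). Ids, the iduronate sulfatase lacking in Hunter syndrome, was at 4.53, 8.42, 8.55 and 9.91 CPM in MEFs and at 2.18, 1.48 and 1.66 CPM in mESCs. The fold was 4.38 (edgeR adjusted p = 0.0016). Galns, which acts on keratan sulfate, had 34, 17, 32 and 54 counts in MEFs and 6, 2 and 6 counts in mESCs. These few counts gave a fitted log2 fold change of -3.07 ± 0.65 (SE, edgeR adjusted p = 0.00261), and 1 mESC library was under the floor.

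Gusb, beta-glucuronidase, was 2.75-fold lower in mESCs, at 29.5 ± 5.34 CPM in MEFs (SD, n = 4) and 10.7 ± 2.96 CPM in mESCs (n = 3, edgeR adjusted p = 0.000887). Naglu, an N-acetylglucosaminidase of heparan sulfate, was at 5.3, 5.97, 7.1 and 5.27 CPM and at 3.7, 1.48 and 2.96 CPM. No library overlapped, but its edgeR adjusted p of 0.0447 went above 0.05 in 6 of the 7 fits that left out 1 library, up to 0.142. It was also above 0.05 without TMM (0.124), with upper quartile scaling (0.0866) and with no filter (0.0848). Idua, the iduronidase that follows Ids on the same chains, was the gene of the 7 that did not pass. Its libraries had 12.1, 15.9, 14.4 and 18.4 CPM in MEFs and 6.21, 13.6 and 5.1 CPM in mESCs. The mESC library of 8057985 counts lay inside the MEF range. Without it Idua had a log2 fold change of -1.43 (edgeR adjusted p = 0.00591) in place of -0.87 (0.069), and with no filter it passed as well (0.0392).

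**Figure D2:**
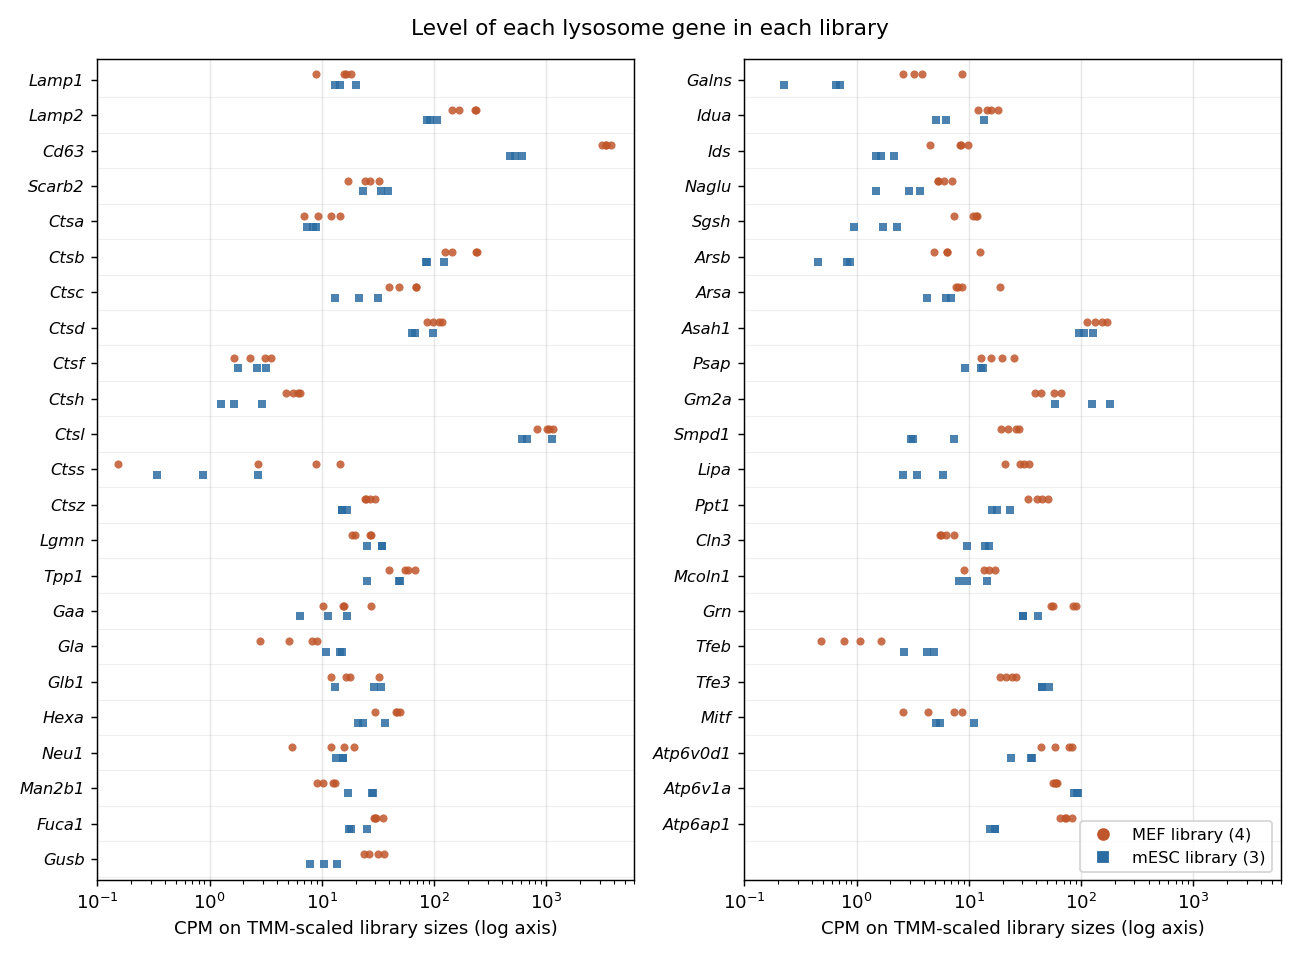
Level of the 45 lysosome genes in each library, in CPM on TMM-scaled library sizes (log axis). Orange circles are the 4 MEF libraries and blue squares the 3 mESC libraries. Cd63, Lipa, Smpd1 and Arsb show wide gaps between the cell types, whereas Lamp1, Ctsf and Mitf are mixed and Ctss spreads from 0.153 to 14.4 CPM among MEFs.

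Enzymes and helpers of lipid breakdown had 3 of 7 lower (42.9%) and 1 higher (14.3%), against 25.0% and 22.8% of all tested genes. Lipa had the largest fitted fall of the 45 after Arsb and Galns. Lipa, the acid lipase that frees cholesterol and fatty acids from their esters, lies on chr19:34492318-34527474. Its level was 20.9, 28.5, 31.3 and 34.4 CPM in MEFs and 3.48, 5.94 and 2.61 CPM in mESCs, a 7.14-fold difference (log2 fold change -2.84 ± 0.33 SE, edgeR adjusted p = 5.02e-05). Smpd1, acid sphingomyelinase, was at 19.4, 22.2, 26.2 and 28 CPM in MEFs and at 3.16, 7.42 and 3.08 CPM in mESCs. The libraries of both genes were widely separated, and Smpd1 was 5.24-fold lower (edgeR adjusted p = 0.000274). Ppt1, which removes palmitate from proteins, was 2.2-fold lower (42.3 ± 7.22 to 19.2 ± 3.67 CPM, edgeR adjusted p = 0.00132).

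Gm2a, the activator that presents the ganglioside GM2 to beta-hexosaminidase, went the other way. It stood at 39.2, 57.4, 66 and 44.4 CPM in MEFs and at 126, 183 and 58.4 CPM in mESCs. The mESC library of 7462710 counts lay within the MEF range, while the other mESC libraries were above all MEF libraries. The log2 fold change was 1.24 ± 0.33 (SE, edgeR adjusted p = 0.00952), and without the mESC library of 8057985 counts it was 0.83 (adjusted p = 0.056). Its partner enzyme Hexa was among the genes that fell.

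Arsa, the sulfatase of sulfatide, had 7.71, 8.73, 7.95 and 19 CPM in MEFs and 6.97, 6.28 and 4.27 CPM in mESCs. Its libraries did not overlap, but the log2 fold change of -0.88 ± 0.40 (SE) did not pass (edgeR adjusted p = 0.0928). Psap, the precursor of the saposins, and Asah1, acid ceramidase, also did not pass, with log2 fold changes of -0.64 and -0.37 (edgeR adjusted p = 0.0943 and 0.109). Both passed when the MEF library of 11441278 counts was left out, at -0.79 and -0.47 (edgeR adjusted p = 0.0477 and 0.0492).

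Sulfatases as a class need a modified cysteine that the enzyme encoded by Sumf1 makes. Of the 5 sulfatases among the 45 genes, Arsb, Galns, Ids and Sgsh were lower in mESCs, and Arsa did not pass. Over all tested genes, 25.0% were lower and 22.8% higher. The sulfatases that were lower are the same genes already counted among the glycosaminoglycan enzymes, so they are not a separate result. Arsk and Arsg, sulfatases from the list of other lysosomal enzymes, did not pass (log2 fold changes -1.13 and 0.12, edgeR adjusted p = 0.0975 and 0.912). Sumf1 itself, from the list of genes that deliver enzymes to the lysosome, was at 27.3 ± 6.3 CPM in MEFs and 7.43 ± 1.5 CPM in mESCs (3.67-fold lower, edgeR adjusted p = 0.000227). Igf2r, the receptor that carries enzymes tagged with mannose 6-phosphate to the lysosome, was 8.87-fold lower (736 ± 199 to 82.9 ± 39.6 CPM, edgeR adjusted p = 3.77e-05). M6pr, the other receptor for this tag, had 99.8 ± 18.8 and 103 ± 10.3 CPM and did not pass (log2 fold change 0.05, adjusted p = 0.857).

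Of the channel and other disease proteins, 1 of 3 rose and 1 fell (33.3% each, against 22.8% and 25.0% of all tested genes). Cln3, a membrane protein whose loss causes juvenile Batten disease, was at 5.49, 5.67, 7.46 and 6.23 CPM in MEFs and at 13.9, 15.3 and 9.6 CPM in mESCs. The ranges did not overlap, with a 2.08-fold higher level in mESCs (edgeR adjusted p = 0.0108), and the call was narrowly lost without the mESC library of 8057985 counts (0.0519). Grn, the precursor of the granulins, was 2.09-fold lower (71.4 ± 18.9 to 34.1 ± 6.43 CPM, edgeR adjusted p = 0.00342). Mcoln1, the calcium channel of the lysosomal membrane, had 13.8 ± 3.42 and 10.8 ± 3.27 CPM and did not pass (edgeR adjusted p = 0.387).

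Of the transcription factors of the lysosome, 2 of 3 were higher in mESCs and 0 lower by edgeR's test, by DESeq2 and at an unadjusted p under 0.05. The shares over all tested genes by edgeR's test were 22.8% higher and 25.0% lower. Tfeb, on chr17:47737030-47792419, stood at 1.64, 0.766, 1.08 and 0.479 CPM in MEFs and at 4.25, 2.63 and 4.86 CPM in mESCs. These are low levels, 3 to 17 counts in MEF libraries and 23 to 41 in mESC libraries, yet the libraries did not overlap. The log2 fold change was 1.92 ± 0.53 (SE, edgeR adjusted p = 0.0114), and without the mESC library of 7462710 counts it was 1.74 (adjusted p = 0.0549). Tfe3, on chrX:7762560-7775202, rested on more counts, at 26.2, 21.7, 19.1 and 24.1 CPM in MEFs and 44.6, 52.2 and 45.2 CPM in mESCs. It was 2.07-fold higher (log2 fold change 1.05 ± 0.18 SE, edgeR adjusted p = 0.000688) and kept that call in every fit that left out 1 library and under each other scaling, filter and tool tried. Mitf, the relative that controls pigment cells, had 5.77 ± 2.81 and 7.25 ± 3.31 CPM with overlapping libraries (edgeR adjusted p = 0.601).

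The 7 genes with TCACGTGA in a promoter did not share a direction. Atp6v1a, Gla and Cln3 were higher in mESCs, Atp6v0d1 was lower, and Ctsa, Ctsd and Mcoln1 did not pass. The shorter sequence TCACGTG, which TCACGTGA contains on either strand, was searched on both strands and found in promoters of 14 genes and in 28% of the 50 promoters, against 3.77% of all promoters. Of these 14 genes 3 were higher, 3 lower and 8 did not pass, and of the 27 matched genes without it 4 were higher, 14 lower and 9 did not pass. Over all tested genes, 22.8% were higher and 25.0% lower. Calls among other genes with the motif were not counted, so no link of motif and direction is drawn. The E-box CACGTG, contained in TCACGTG and TCACGTGA, was in 32% of the 50 promoters and 7.15% of all. These are matches of letters in a 300-base window, and binding was not measured here.

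**Figure D3:**
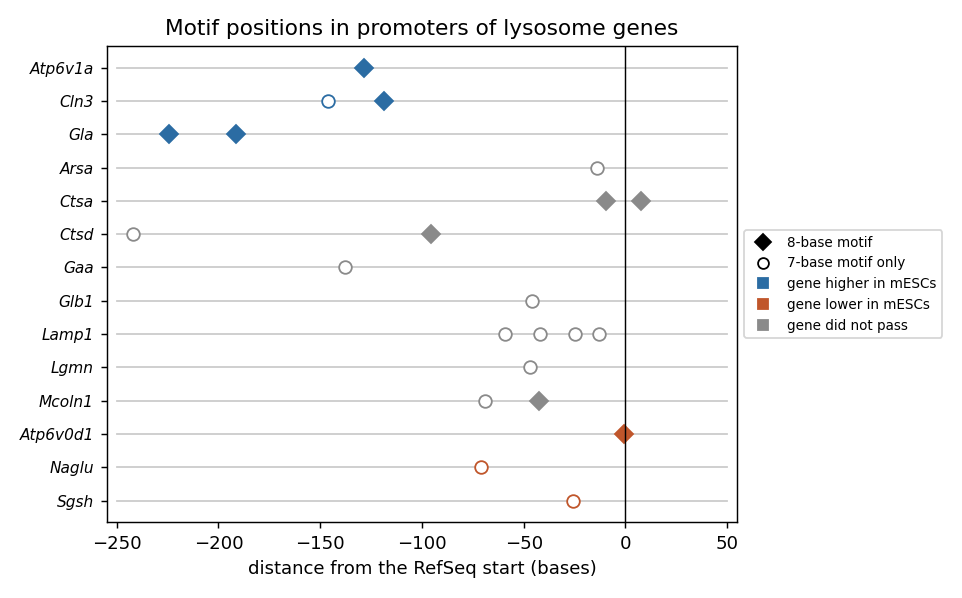
Position of TCACGTGA (diamonds) and of TCACGTG outside it (open circles) in the promoters of 14 lysosome genes, as distance of the motif's centre from the RefSeq start in bases, each promoter running from 250 before to 50 after. Blue genes were higher and orange genes lower in mESCs, and grey genes did not pass. Lamp1 holds 4 open circles within about 60 bases of its start, and both diamonds of Gla lie near 200 bases upstream.

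The 3 proton pump genes among the 45 did not share a direction. The V1 sector, in the cytosol, splits ATP, and the V0 sector, in the membrane, carries the protons. Atp6v1a, the catalytic V1 subunit, was at 55.8, 58.7, 60.7 and 59.8 CPM in MEFs and at 93.4, 91.5 and 86.9 CPM in mESCs. It had the tightest libraries of the 45 in relation to its level and was 1.54-fold higher (log2 fold change 0.63 ± 0.14 SE, edgeR adjusted p = 0.00312). Atp6v0d1, a V0 subunit that joins both sectors, was at 58.7, 44.3, 78 and 82.4 CPM in MEFs and at 35.9, 36.8 and 23.6 CPM in mESCs, 2.05-fold lower without overlap (edgeR adjusted p = 0.00614). Atp6ap1, an accessory subunit needed to assemble the pump, fell from 65.3, 83.3, 71.8 and 74 CPM to 15.5, 17.2 and 17.1 CPM. That was a 4.43-fold difference (log2 fold change -2.15 ± 0.17 SE, edgeR adjusted p = 2.83e-06).

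The rest of the pump was read in the same way. With the 3 genes above and 19 others from a list of pump subunits, 8 of the 9 V1 subunits that could be tested were higher in mESCs and 0 lower by edgeR's test, and 0 of the 8 V0 subunits were higher and 3 lower. At an unadjusted p under 0.05, V1 had 8 higher and 0 lower and V0 had 0 higher and 4 lower, and DESeq2 gave the same counts. Leaving aside Atp6v0d1, 2 of 7 V0 subunits were lower, which is near the share over all tested genes. Of those, 25.0% were lower and 22.8% higher. This split by sector was made after the values were seen. The 8 that rose, by log2 fold changes of 0.44 to 1.02, were Atp6v1a, Atp6v1b2, Atp6v1c1, Atp6v1d, Atp6v1e1, Atp6v1f, Atp6v1g1 and Atp6v1h. Atp6v1g1, for example, went from 96.4 ± 6.89 to 186 ± 1.52 CPM (edgeR adjusted p = 0.000161) and Atp6v1h from 46.1 ± 8.54 to 93.6 ± 4.41 CPM (adjusted p = 0.000692). The remaining V1 gene, Atp6v1g2, had at most 2.4 CPM and did not pass.

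Atp6v0e and Atp6v0a2 were the V0 subunits lower beside Atp6v0d1, at 241 ± 19.5 against 117 ± 7.86 CPM and 17.2 ± 3.23 against 8.69 ± 3.38 CPM (edgeR adjusted p = 0.000115 and 0.0248). Atp6v0b did not pass, with 89.5 ± 9.18 CPM in MEFs and 87.4 ± 9.05 CPM in mESCs, nor did Atp6v0c, Tcirg1, Atp6v0a1 and Atp6v0e2, with log2 fold changes of -1.01, -0.45, 0.6 and 0.76. Atp6ap2, the other accessory subunit, had 40.6 ± 2.95 CPM in MEFs and 52.9 ± 0.948 CPM in mESCs. Its libraries did not overlap, on the opposite side to those of Atp6ap1, and it did not pass (log2 fold change 0.38, edgeR adjusted p = 0.057). The median log2 fold change was 0.60 for the V1 and -0.71 for the V0 subunits. Without TMM it was 0.89 and -0.42, and the calls were 8 higher and 0 lower for V1 and 1 higher and 2 lower for V0. The V1 count of 8 was the same by DESeq2, with DESeq2's size factors and with upper quartile scaling.

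**Figure D4:**
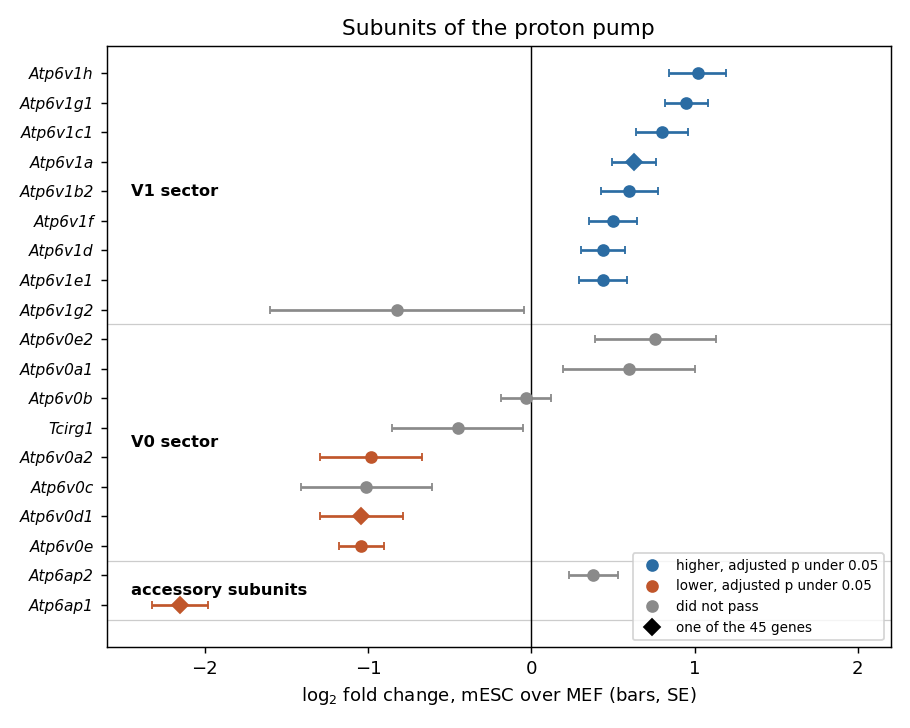
Fitted log2 fold change, mESC over MEF, with standard error (bars), for the 19 proton pump subunits that could be tested, by sector. Diamonds mark subunits among the 45 lysosome genes. Atp6v1g2 is the V1 subunit left of 0, and the 3 called V0 subunits lie near -1.

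Other genes of the lysosome pathway were read from 7 lists with 134 genes, none of them among the 45. Of these 124 were tested. By edgeR's test, 37 were lower in mESCs (29.8%) and 25 higher (20.2%), where 25.0% and 22.8% of all tested genes were. The shares of the lists were nearer to those of all genes than the shares of the 45 were. Other lysosomal enzymes had 7 lower and 5 higher of 27 (25.9% and 18.5%). Ctsk, a collagen-degrading cathepsin, had 28 ± 5.72 CPM in MEFs and 2, 2 and 4 counts in the mESC libraries (edgeR adjusted p = 4.48e-07). Smpdl3a, an acid phosphodiesterase, fell by 3.07 on the log2 scale (edgeR adjusted p = 0.00363). Manba, beta-mannosidase, rose from 0.639 to 1.2 CPM in MEF libraries to 20 to 29.4 CPM in mESC libraries (log2 fold change 4.92, edgeR adjusted p = 9.31e-07). Dnase2a, the acid DNase, and Acp5, an acid phosphatase, rose by log2 fold changes of 3.24 and 2.39 (edgeR adjusted p = 2.6e-05 and 0.00176).

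Other membrane and luminal proteins had 5 lower and 3 higher of 19 (26.3% and 15.8%, against 25.0% and 22.8% of all tested genes). Laptm4a and Laptm5, related transmembrane proteins, moved in opposite directions. Laptm4a was at 707 to 889 CPM in MEFs and 151 to 211 CPM in mESCs (edgeR adjusted p = 1.55e-06), whereas Laptm5 was at 0.153 to 7.22 CPM and 52.8 to 62.7 CPM (adjusted p = 0.000568). Sppl2a, an intramembrane protease, and Npc2, a cholesterol carrier, were lower (log2 fold changes -1.54 and -0.57), and Tmem192 was higher (0.81). Enzyme delivery had 5 lower and 2 higher of 18 (27.8% and 11.1%). Besides Igf2r and Sumf1, Ap1s1 of the AP-1 coat was lower (-2.02), and Gga3 and Gga2, sorting adaptors of the Golgi, were higher (1.36 and 0.85).

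Nutrient sensing at the lysosome, where the kinase mTOR is switched on by amino acids, had 7 lower and 4 higher of 19. These were shares of 36.8% and 21.1%, against 25.0% and 22.8% of all tested genes. The Rag GTPases Rragc and Rragd, alternatives in the same complex, moved apart, with Rragc 3.1-fold lower (19 ± 5.98 to 6.11 ± 0.755 CPM, edgeR adjusted p = 0.00183) and Rragd 3.67-fold higher (3.49 ± 1.03 to 13 ± 1.26 CPM, adjusted p = 0.000793). Mtor and its inhibitor Deptor were both higher (log2 fold changes 1.17 and 1.52), and Akt1s1 and Lamtor1 were lower (-1.76 and -1.14). Autophagy genes had 7 lower and 2 higher of 19 (36.8% and 10.5%). Gabarap, an ATG8 protein that coats autophagosomes, was 6.7-fold lower (398 ± 102 to 59.4 ± 6.91 CPM, edgeR adjusted p = 3.24e-06), while its relative Gabarapl2 was 3.03-fold higher (28.2 ± 8.07 to 85.7 ± 8.68 CPM, adjusted p = 0.000202). Stx17 and Map1lc3a were lower (-2.36 and -2.2), and Ulk1, the kinase that starts autophagy, was higher (2.42).

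Protease inhibitors had 4 lower and 2 higher of 6 (66.7% and 33.3%, against 25.0% and 22.8% of all tested genes). Cst3, cystatin C, a secreted inhibitor of cysteine cathepsins, went from 534 ± 68.1 to 195 ± 22.6 CPM (edgeR adjusted p = 1.99e-05). Serpinb6a was lower as well (125 ± 3.05 to 46.6 ± 6.49 CPM), and Serpinb6b had 52, 20, 8 and 32 counts in MEFs and 0, 5 and 0 in mESCs. Spint1 and Spint2, inhibitors of serine proteases on epithelial cells, were higher. Spint1 had 9, 1, 0 and 0 counts in MEFs and 413, 236 and 299 in mESCs, and Spint2 went from 5.49 ± 2.21 to 64.4 ± 18.4 CPM.

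**Figure D5:**
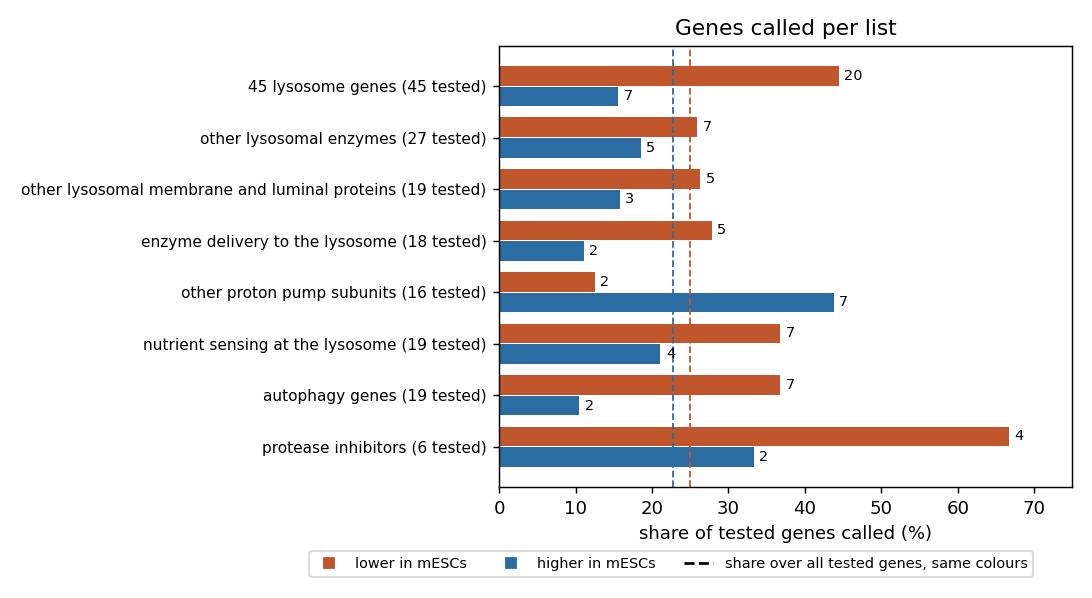
Share of the tested genes of each list that passed as lower (orange) or higher (blue) in mESCs (edgeR, threshold 0.05 on the adjusted p), with the number of genes at the end of each bar. Dashed lines give the shares over all tested genes, 25.0% lower and 22.8% higher. The 45 lysosome genes reach 44.4% lower, and the other proton pump subunits reach 43.8% higher.

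The lysosome genes also varied together among libraries of one cell type. The MEF library of 11441278 counts held the lowest level of 28 of the 45 genes (62.2%), where it held the lowest level of 24% of all tested genes. The highest levels were in the MEF libraries of 9176467 and 6528643 counts for 17 and 18 genes (37.8% and 40%, against 24.3% and 26.4% of all tested genes). These libraries also had the highest macrophage marker sums of the MEFs, 92.1 and 98.1 CPM against 42.5 and 23.6 CPM, and the part of such cells in these levels was not tested. In mESCs, the library of 7462710 counts was lowest for 28 genes (62.2%, against 33.3% of all tested genes) and that of 8193825 counts highest for 26 (57.8%, against 32.9%). The library of 7462710 counts, lowest for most genes, had the highest macrophage marker sum of the mESCs, 28.9 CPM against 18.5 and 15.1 CPM. The MEF library of 11441278 counts was the deepest of the 7. These shares are descriptions, since genes of 1 library are not independent. Of the 27 genes called, 18 kept the call in all 7 fits that left out 1 library and under the 6 other scalings, filters and tools, 15 of them lower and 3 higher (Man2b1, Tfe3 and Atp6v1a).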

How the data were processed

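Gene counts of 4 MEF and 3 mESC libraries, made by a 3′-end protocol with molecular identifiers, were analysed. The authors aligned reads to mm10 with STAR, collapsed identifiers with Je, used featureCounts for reads that mapped uniquely to exons, and deposited whole-number counts without normalization; the annotation release and strand setting are not given in the sources used here. Since a column name gives the cell type and no sample, each library is called by its total (6528643 to 11441278 counts). The floor of 3 counts covers counting error only, while SDs and SEs include the spread between libraries. 26 rows had symbols in the form of dates, and 0 columns were left unused.

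edgeR 4.0.16 (R 4.3.3, limma 3.58.1) with TMM, filterByExpr and the quasi-likelihood test was run over all 7 libraries, with Benjamini-Hochberg adjustment over 16580 genes at 0.05. Standard errors were taken as the log2 fold change over the root of the F statistic. The code was tested on simulated counts. Alternatives were DESeq2 1.42.0, other scalings and filters (none, or 10 counts in every library of a cell type), a fold change of 2, and each library left out. All 45 genes are named; of each pathway list, up to 3 called genes with the smallest and largest fold changes whose libraries did not overlap are, except 1 that is not reported here. Others (the remaining pump subunits, in the split by sector, and Arsk, Arsg and M6pr) were chosen after their values were seen. Members and lists were chosen with earlier results of these data known. Coordinates and exon overlaps are from GENCODE M21 on GRCm38, promoters from RefSeq on GRCm38.p6.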

Additional observations from a re-analysis of the deposited data

Results flagged for a closer look

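Arsa, the sulfatase of sulfatide, had 1 MEF library that stood apart. The MEF library of 6528643 counts was at 19 CPM, and the other MEF libraries were at 7.71 to 8.73 CPM. The gap was 0.91 of the range of the 4 libraries, above Dixon's 95% critical value for 4 samples. Over 45 genes tested in this way 1 was found, where chance gives about 2.25. The cause was not tested. Of the exon bases of Arsa, 18.8% overlap C230037L18Rik on the other strand, a gene with at most 26 counts in a library.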

How the results depend on the processing

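The counts of lysosome genes called were 7 higher and 20 lower. Against a fold change of 2 they were 0 and 8, and those of the pathway lists went from 25 higher and 37 lower to 10 and 17, since that test asks for more. With 1 library left out in turn, 4 to 7 lysosome genes were higher and 17 to 21 lower, and 19 to 25 pathway genes were higher and 32 to 37 lower. The 4 came without the mESC library of 8057985 counts. Under DESeq2, the other scalings and the filters, all 4 counts stayed within 1.5 times the main ones. Over all genes, no TMM gave 5205 higher and 3334 lower and upper quartile scaling 4759 and 3596 (median shifts of 0.28 and 0.19), against 3785 and 4153. Of 629 log2 fold changes of the 45 genes under 14 settings, 558 kept direction and side of the threshold, 51 kept only the direction, 11 became significant and 9 reversed. The reversed values were of genes that did not pass: with 1 library left out, Lamp1 ran from -0.11 to 0.21 (-0.09 in another fit), Neu1 from -0.09 to 0.42, Mitf from -0.11 to 0.6 and Ctsf from -0.26 to 0.13 (0.03 and 0.09 between), and Ctsf was at 0.22 without TMM and 0.13 with upper quartile scaling. The causes were not tested. Of 90 mean levels computed over library totals in place of TMM sizes, 80 moved by less than 1 SD. No paired analysis was possible because the last digits of the column names are nowhere tied to sample numbers. Depth limits Galns, Ctss and Tfeb, each with a library at or under 3 counts.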
